A study of Mus musculus with 50 samples.

Results

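The comparison described here is the effect of activated Ras in cells that already carry a mutant p53. It sets the 10 arrays titled mp53/Ras against the 10 titled mp53, 20 of the 50 arrays of the series, over all genes of the platform annotation. Of 18193 gene symbols on the table, 12883 were bright enough to be tested. All cells were young adult mouse colon (YAMC) cells, an epithelial line from the Immorto-mouse, whose temperature-sensitive large T antigen keeps them dividing at 33 °C with interferon gamma and is lost at 39 °C without it. The mp53 population carried p53175H with a Neo vector and the mp53/Ras population carried p53175H with RasV12, so the vectors differ along with Ras. The Ras population carried RasV12 with a Bleo vector, bleo/Neo carried both empty vectors, and the YAMC group was the uninfected parent. Every group spent 48 h at 39 °C and then 24 h in 0% serum, and RNA was taken from polysomes while the cells were below confluence and cycling. The retroviral populations were polyclonal and separately derived, and the series holds a single population of each kind, so an effect of Ras and a difference between derivations cannot be told apart. The labels do not say whether replicates were separate cultures, and p-values measure only the spread between these arrays.

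Ras is a membrane-bound switch that, locked in its active state, drives the Raf, MEK and ERK kinases and the PI3 kinase pathway. ERK output is usually followed through genes that it induces and that in turn restrain it, such as the Dusp phosphatases, the Sprouty proteins and Errfi1. The p53 protein is a transcription factor that holds back division and promotes cell death, and the 175H mutant has lost normal DNA binding and can interfere with the wild-type protein. Because the RNA came from polysomes, a level here reflects both the amount of a transcript and how heavily it is loaded with ribosomes. The introduced Ras and p53 transcripts are not analysed here. Levels are log2 intensities, differences are mp53/Ras minus mp53 on that scale ± their standard error in the limma model, and n is 10 arrays a group unless fewer are named.

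Several arrays stood apart from their group. Over the tested genes, mp53 array 10 lay 0.266 (root mean square, log2) from the Ras group mean and 0.418 from that of the remaining mp53 arrays. On a line from the mp53 mean (0) to the mp53/Ras mean (1) it sat at 0.55, while the other mp53 arrays lay between -0.10 and 0.03 and the mp53/Ras arrays between 0.87 and 1.09. Array mp53 8 was nearest the YAMC mean, at 0.362 against 0.497 to its own, and Ras array 10 was nearest the mp53 mean, at 0.275. YAMC array 2 was also nearer the mp53 mean (0.482) than that of the other YAMC arrays (0.517). The remaining mp53 arrays and every mp53/Ras array were nearest their own group. The main counts and part of the gene and list results are therefore given also without mp53 8 and 10. Most of the main counts that use the Ras or YAMC group are given also without mp53 8, mp53 10 and Ras 10, or without YAMC 2. Other counts are with all arrays. The mp53 and mp53/Ras group means were 0.447 apart, the Ras and mp53/Ras means 0.268, and the YAMC and mp53 means 0.269.

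Markers of the labelled tissue were partly absent. Of 16 marker genes of the colon epithelium, such as Cdx1, Vil1 and Lgr5, 12 lay below the median of the whole table (6.44) in mp53 cells and 11 in mp53/Ras cells. Cdh1, the classical epithelial cadherin, was at a mean of 4.01 and 4.31. Keratins of simple epithelia were bright: Krt8 averaged 12.94 in mp53/Ras and 12.36 in mp53 cells. The summed linear intensity of 8 epithelial markers ran from 13593 to 16835 over the mp53/Ras arrays and from 7700 to 15049 over the mp53 arrays, with 3 of 6 tested members higher and 0 lower. The summed intensity of 10 fibroblast markers ran from 16540 to 23358 and from 16205 to 48572, with 1 of 5 tested members higher and 4 lower. Of these 10 markers 5 lay below the table median in each group, Pdgfra, Thy1 and Lum among them. The others were above it. Col3a1 averaged 12.75 in mp53/Ras and 13.43 in mp53 cells, Col1a1 12.49 and 13.23, and Col1a2 12.41 and 13.06. Dcn averaged 10.69 and 12.04, and Pdgfrb 8.01 and 7.81. Endothelial, immune, squamous and neural markers had 1, 3, 3 and 0 members higher and 1, 1, 1 and 2 lower, of 3, 5, 7 and 6 tested. Over all tested genes 23.3% were higher and 23.8% lower. The part of these markers in the other differences was not tested.

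The populations also differed in sex-chromosome transcripts. Xist, the RNA that silences an X chromosome, had a lowest, median and highest level of 8.31, 9.41 and 9.91 on the mp53/Ras arrays and ranged from 6.64 to 7.10 on the mp53 arrays other than 8 (7.68) and 10 (8.98). Its difference was 2.15 ± 0.25. The Y-linked Uty, Kdm5d and Eif2s3y fell by 1.75 ± 0.19, 1.59 ± 0.19 and 1.02 ± 0.17, and in each all 10 mp53/Ras arrays lay below all 10 mp53 arrays. Uty averaged 5.57 in mp53/Ras, 7.32 in mp53, 6.37 in Ras and 6.98 in YAMC cells. In bleo/Neo cells it averaged 3.58, near the lowest value of the table (3.04), as did Kdm5d at 3.63 and Eif2s3y at 3.73. Whether a difference in the makeup of the populations has a part in the other differences was not tested.

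Addition of Ras to mutant p53 cells was accompanied by many changes, most of them small. At an adjusted p under 0.05, 6071 genes differed (47.1% of those tested), 2999 higher (23.3%) and 3072 lower (23.8%), and the median difference over all tested genes was 0.01. At least 2-fold differences were found for 477 genes (3.70%), 210 higher (1.63%) and 267 lower (2.07%). Without mp53 8 and 10 the test called 5868 genes (45.5%), 2874 higher (22.3%) and 2994 lower (23.2%), of which 538 differed at least 2-fold (4.18%), 245 higher (1.90%) and 293 lower (2.27%). There were 5415 genes called in the same direction in both fits and 462 at least 2-fold in both. All mp53/Ras arrays lay above all mp53 arrays for 533 genes (4.14%) and below them for 885 (6.87%). Without mp53 8 and 10 the arrays of the groups did not overlap for 2410 genes (18.7%). Of the 477 genes, 179 had another bright probe set, and in 68 of these it showed under 0.4 of the change or the opposite direction.

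**Figure D1:**
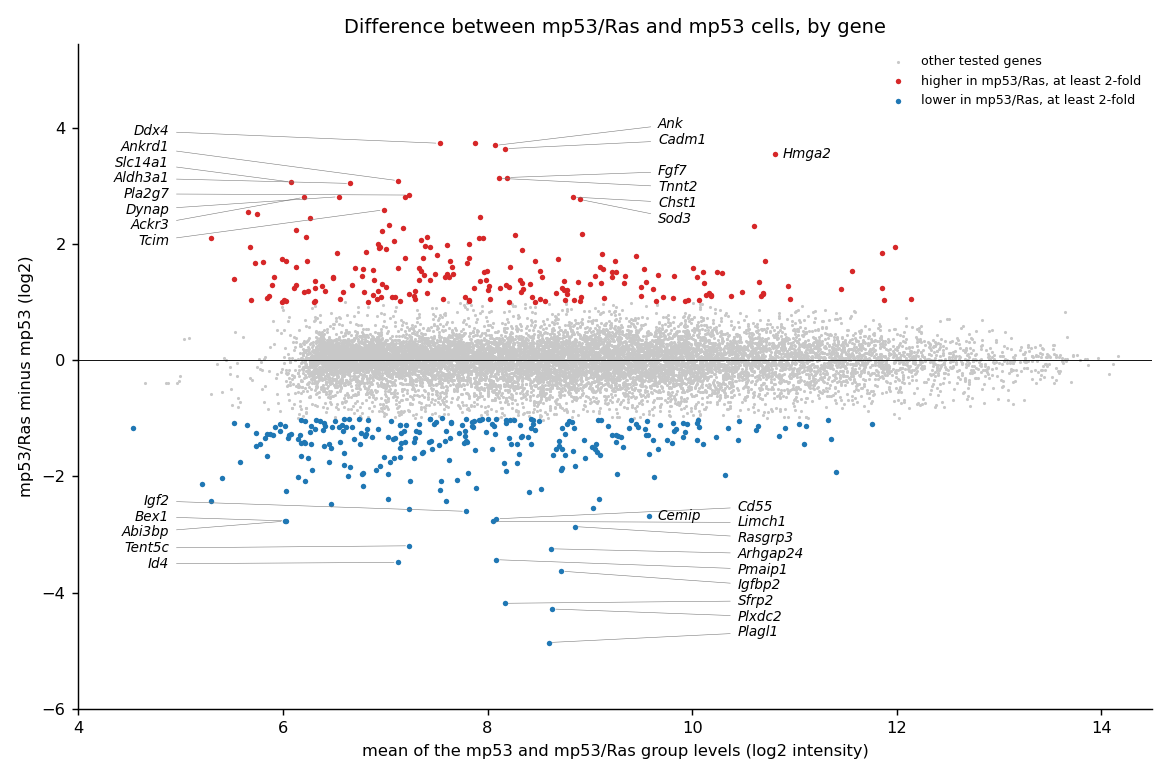
Each point is a tested gene, with the mean of the mp53 and mp53/Ras group levels (log2 intensity) on the x axis and mp53/Ras minus mp53 (log2) on the y axis; red and blue points are the 210 genes higher and 267 genes lower by at least 2-fold, and the 15 leading rises and falls are named. The named falls reach -4.86 (Plagl1) and the named rises 3.73 (Ddx4), and Hmga2 is the named rise at the highest level.

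The 15 leading rises were the largest among genes called both with all arrays and without mp53 8 and 10. Predicted or clone names were passed over, among them 2610528A11Rik with a difference of 3.74. Hmga2, a chromatin protein of embryonic and tumour cells, stood at 12.15, 12.66 and 12.79 (lowest, median and highest) on the mp53/Ras arrays. The mp53 arrays other than 8 and 10 ran from 8.03 to 8.97, array 8 was at 9.84 and array 10 at 12.42, inside the mp53/Ras range. Its difference was 3.55 ± 0.37 (limma, adjusted p = 5.13e-11), and 4.07 without mp53 8 and 10. Fgf7, a fibroblast growth factor that acts on epithelial cells, was at 9.52, 9.76 and 10.06 against 6.18 to 6.80, with array 8 at 6.30 and array 10 at 8.87. All mp53/Ras arrays were higher than all mp53 arrays, and Fgf7 rose by 3.15 ± 0.27 (3.39 without 8 and 10). Ank, a membrane protein that exports pyrophosphate, was at 9.09, 9.97 and 10.30 against 5.73 to 6.25, with 5.49 on array 8 and 8.59 on array 10, a difference of 3.70 ± 0.27. Cadm1, an immunoglobulin-like cell adhesion molecule, was at 9.19, 9.91 and 10.59 against 5.72 to 6.04, with 6.70 on array 8 and 9.49 on array 10, so that array 10 lay among the mp53/Ras arrays. Its difference was 3.64 ± 0.32, and 4.08 without 8 and 10.

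Ddx4, the germ-cell RNA helicase Vasa, had the largest fold of the named rises, 13.3-fold (3.73 ± 0.48, and 4.28 without mp53 8 and 10). It was at 8.81, 9.32 and 9.99 on the mp53/Ras arrays, at 4.37 to 5.61 on 8 mp53 arrays, and at 5.67 and 10.05 on arrays 8 and 10. Bleo/Neo cells, which carry no introduced Ras, had a mean of 9.01 for Ddx4. Tnnt2, cardiac troponin T, was at 9.49, 9.63 and 10.30 against 5.80 to 6.68, with 7.11 and 8.38 on arrays 8 and 10, and its difference was 3.13 ± 0.24. Ankrd1, an ankyrin-repeat protein of muscle and a common readout of YAP, was high on every mp53/Ras array and low on every mp53 array, 8 and 10 included. Its mp53/Ras arrays were at 8.39, 8.69 and 9.04 and its mp53 arrays at 5.41 to 5.59, with 5.93 and 5.95 on arrays 8 and 10. The difference of 3.09 ± 0.18 (limma, adjusted p = 3.37e-19) was 3.18 without those 2 arrays.

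Most of the other leading rises had arrays that did not overlap between the groups. Slc14a1, a urea transporter, rose by 3.07 ± 0.20, from a highest mp53 level of 5.18 to a lowest mp53/Ras level of 6.29. Aldh3a1, an aldehyde dehydrogenase, rose by 3.04 ± 0.25, Pla2g7, the enzyme that inactivates platelet-activating factor, by 2.84 ± 0.18, Chst1, a sulfotransferase of keratan sulfate, by 2.81 ± 0.18, and Dynap by 2.81 ± 0.19. For these 4 the arrays of the groups did not overlap. Sod3, the secreted superoxide dismutase, had a difference of 2.77 ± 0.35 and Tcim one of 2.59 ± 0.29, with no overlap either. Ackr3, a scavenging receptor for the chemokine Cxcl12, had a difference of 2.80 ± 0.26, and mp53 array 10 (7.22) lay above its lowest mp53/Ras array (6.73).

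The deepest of the 15 leading falls was that of Plagl1. This imprinted zinc-finger gene, which restrains division, was at 5.21, 6.25 and 6.86 on the mp53/Ras arrays. The mp53 arrays other than 8 and 10 ran from 10.70 to 11.94, and arrays 8 and 10 were at 10.42 and 7.45, so the groups did not overlap. The fall was 29.0-fold (-4.86 ± 0.39; limma, adjusted p = 1.99e-14), although another bright probe set of the gene differed by 0.09. Igf2, the imprinted insulin-like growth factor, was at 6.27, 6.51 and 6.66 against 9.09 to 9.95, and arrays 8 (7.03) and 10 (7.10) lay far below the other mp53 arrays yet above every mp53/Ras array. Its difference was -2.60 ± 0.31, and -3.11 without them. Igfbp2, which binds insulin-like growth factors, was at 6.71, 6.84 and 7.22 against 10.37 to 11.65, with 9.69 on array 8 and 6.65 on array 10. Array 10 was inside the mp53/Ras range, and the difference was -3.63 ± 0.42.

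Sfrp2, a secreted protein that binds Wnt ligands, was at 5.66, 6.08 and 6.61 on the mp53/Ras arrays and at 9.78 to 11.53 on the mp53 arrays, with 9.22 and 6.96 on arrays 8 and 10, and fell by 4.18 ± 0.37. Id4, an inhibitor of helix-loop-helix transcription factors, was at 4.90, 5.36 and 6.01 against 8.66 to 9.40, with 9.33 and 6.42, and fell by 3.48 ± 0.28. Other bright probe sets of Id4 differed by -3.16 and -1.09. Neither gene's arrays overlapped between the groups. Pmaip1, which encodes the BH3-only death protein Noxa and is a p53 target, was at 5.68, 6.37 and 7.11 against 9.60 to 10.07, with 11.28 on array 8 and 8.20 on array 10. It fell 10.8-fold (-3.43 ± 0.21; limma, adjusted p = 1.32e-18). Arhgap24, a GTPase-activating protein for Rac, had the smallest adjusted p of the leading genes (1.96e-25 in limma): 6.76, 6.98 and 7.36 against 9.95 to 10.51, with 10.96 and 9.52, a difference of -3.25 ± 0.13. Another bright probe set of Arhgap24 differed by -0.33.

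Plxdc2, a transmembrane protein, fell by 4.28 ± 0.37, and its mp53 array 10 (6.89) lay just above the highest mp53/Ras array (6.61). Tent5c, a poly(A) polymerase, fell by 3.19 ± 0.22, and another bright probe set of it differed by -1.0. Rasgrp3, an exchange factor that activates Ras and Rap, fell by 2.86 ± 0.27, from 10.07 to 10.82 on 8 mp53 arrays to at most 7.87 on the mp53/Ras arrays. Cd55, which protects cells from complement, fell by 2.73 ± 0.21, Limch1 by 2.77 ± 0.26 and the matrix protein gene Abi3bp by 2.77 ± 0.29, all without overlap. Bex1 and Cemip, the latter a hyaluronan-degrading protein, differed by -2.77 ± 0.42 and -2.68 ± 0.32, and their mp53 array 10 lay inside or below the mp53/Ras range. Another bright probe set of Cemip differed by -0.02. Of the 177 genes named by rule 81 had another bright probe set, and in 27 it showed under 0.4 of the change or the opposite direction, among them Plxdc2 (-0.91) and Cadm1 (1.33) of the leading genes. In all, 7 of the 30 leading genes overlapped between the groups with every array and 0 of 30 without mp53 8 and 10.

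**Figure D2:**
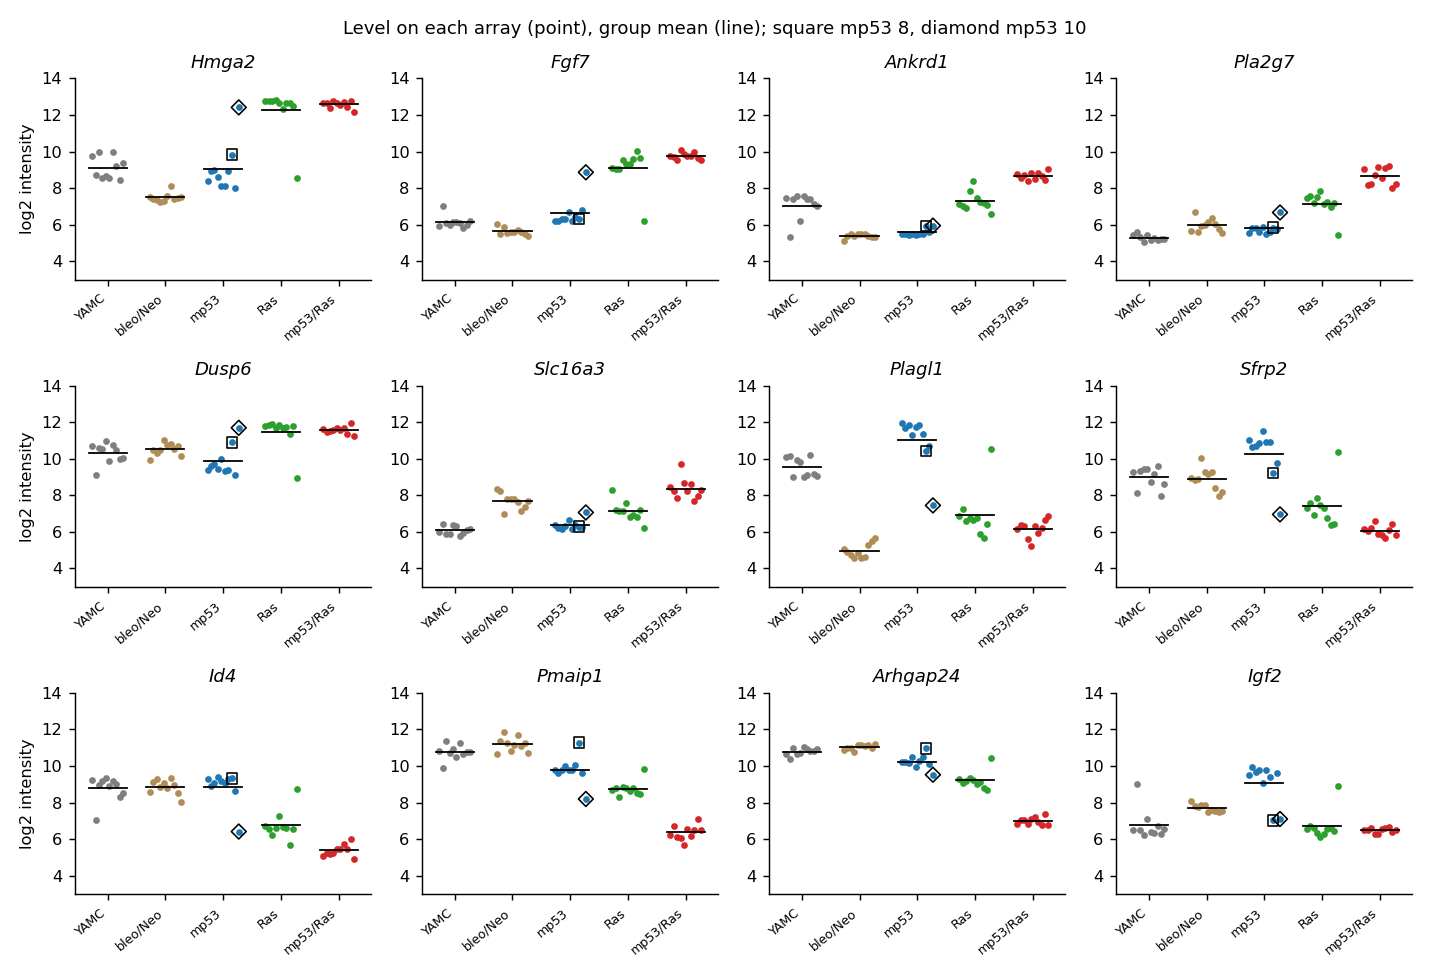
Log2 intensity (y axis) of 12 genes on every array of the 5 groups (x axis), with the group mean as a line, mp53 8 as a square and mp53 10 as a diamond. For Hmga2 the diamond (12.42) sits inside the mp53/Ras range of 12.15 to 12.79, while for Ankrd1 both marked mp53 arrays (5.93 and 5.95) sit far below the lowest mp53/Ras array (8.39).

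The 32 gene lists examined beside the sex-chromosome transcripts moved in different directions. The share of members called higher was largest for genes of the MAPK feedback and ERK response, for glycolysis and for cholesterol synthesis. The share called lower was largest for smooth muscle genes, collagens, p53 targets and matrix glycoproteins. Over all tested genes 23.3% were higher and 23.8% lower, and these shares are the background for each count below. Counts are with all arrays where no others are named. Without mp53 8 and 10 the background shares were 22.3% and 23.2%.

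**Figure D3:**
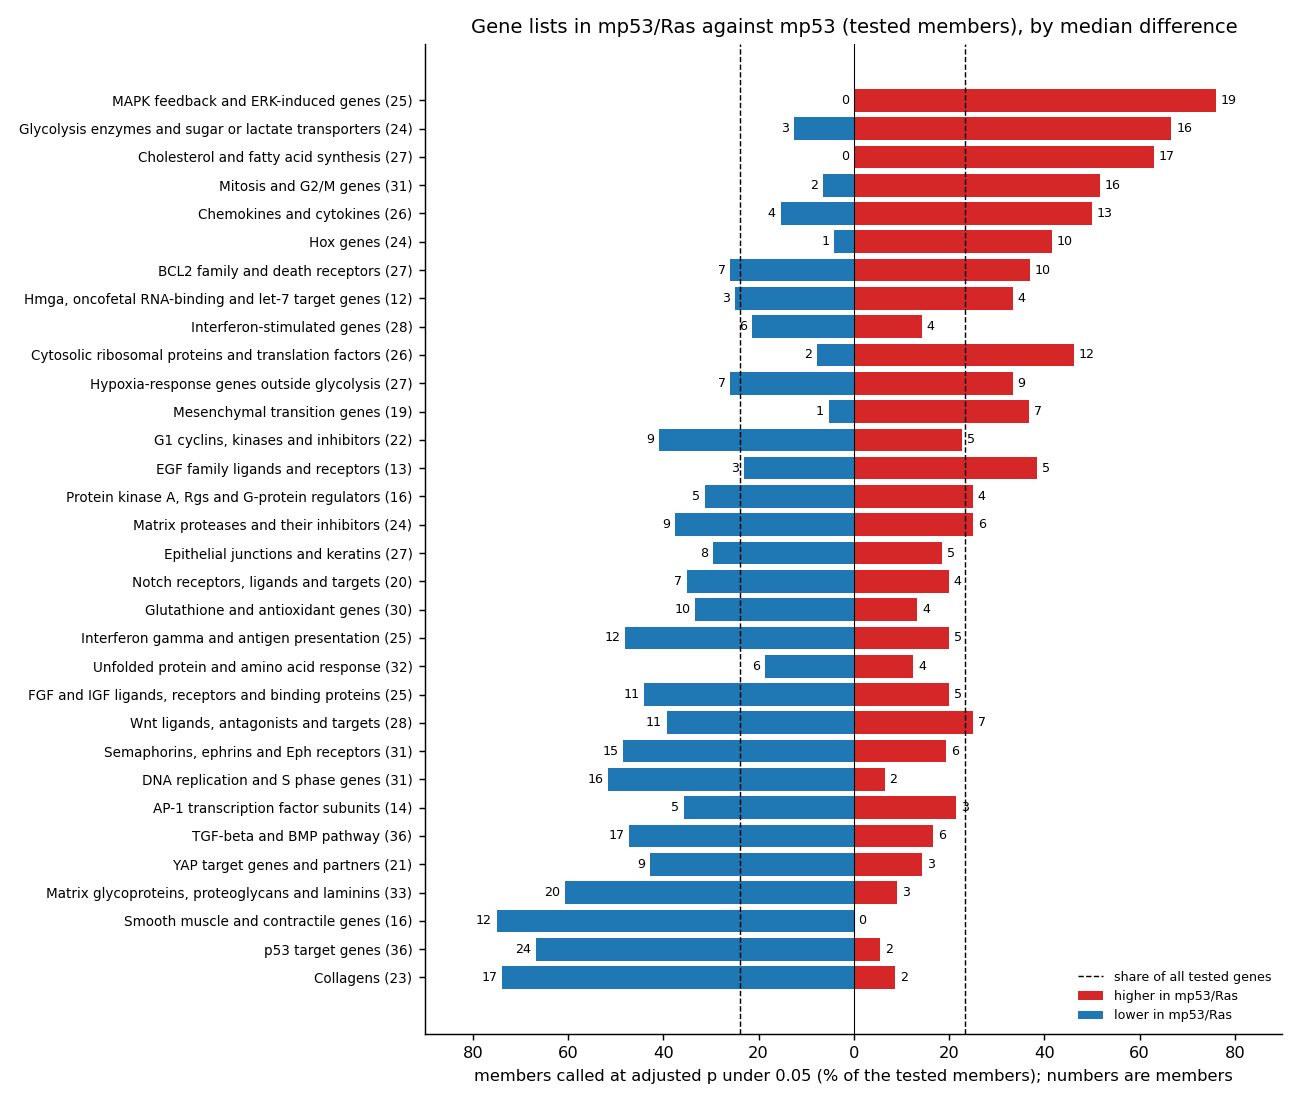
Bars give the percentage of each list's tested members (number in brackets) that were higher (right, red) or lower (left, blue) in mp53/Ras than in mp53 at an adjusted p under 0.05, with the counts at the bar ends and the lists ordered by median difference; dashed lines mark the shares of all tested genes. The MAPK list has 19 of 25 members higher and 0 lower, and the collagens 17 of 23 lower and 2 higher.

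Genes induced by ERK or feeding back on it were 19 of 25 higher and 0 lower (76% higher), with a median difference of 0.80 and 10 members at least 2-fold up. The counts were 19 and 0 without mp53 8 and 10, with a median of 0.95. Fosl1, the AP-1 subunit Fra-1, was at 10.11, 10.31 and 10.72 on the mp53/Ras arrays and at 7.90 to 8.42 on the mp53 arrays, with 8.95 on array 8 and 10.52 on array 10, and differed by 1.79 ± 0.24. Dusp6, a phosphatase of ERK, was at 11.24, 11.59 and 11.93 against 9.10 to 10.00, with 10.90 and 11.69, a difference of 1.71 ± 0.27 (2.07 without 8 and 10). For both, mp53 array 10 lay inside the mp53/Ras range and the other mp53 arrays below it. Errfi1, an inhibitor of the EGF receptor, was at 10.09, 10.48 and 10.59 against 8.60 to 8.95, with 8.97 and 10.07, and rose by 1.46 ± 0.14. Dusp4, another ERK phosphatase, rose by 1.51 ± 0.22, the Sprouty genes Spry4 and Spry2 by 1.20 and 1.02, the Ets factors Etv4 and Etv5 by 1.29 and 1.16, and Ccnd1, the gene of cyclin D1, by 0.69 ± 0.10. The 6 members that did not pass were Dusp7 (0.15), Spry1 (0.05), Ier3 (-0.03), Spred3 (-0.08), Epha2 (-0.10) and Fos (-0.31).

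Averaged over the 25 members on each array, the MAPK list stood at 9.65, 9.74 and 9.86 in mp53/Ras cells and at 8.82 to 8.97 on the mp53 arrays other than 8 (9.07) and 10 (9.78). The Ras arrays had a median of 9.81, and Ras array 10 was at 8.91. YAMC and bleo/Neo medians were 9.10 and 9.08. Array mp53 10 thus lay among the arrays with introduced Ras for this list, and Ras array 10 among those without it.

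**Figure D4:**
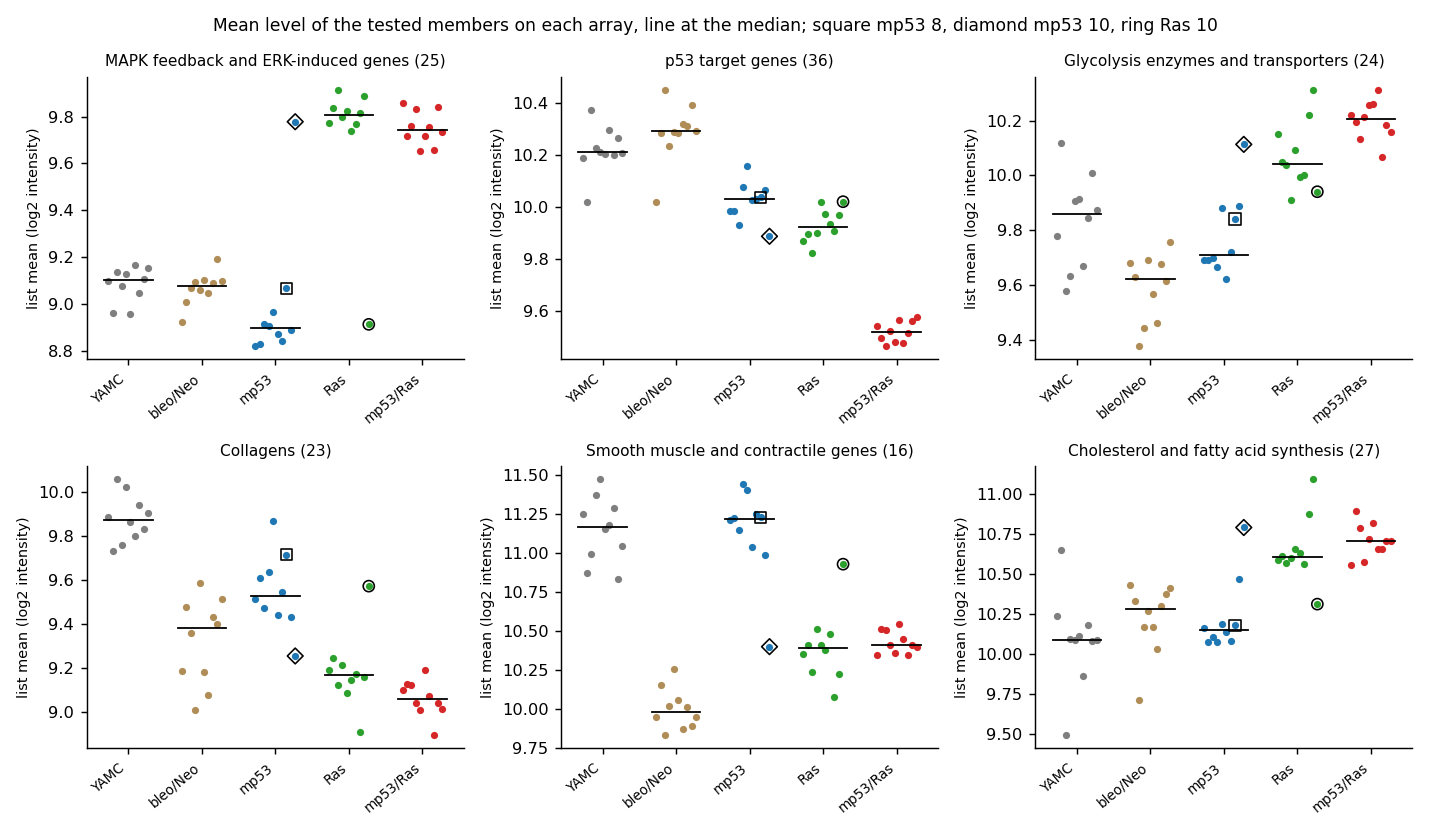
Mean log2 intensity of the tested members of 6 lists (y axis, each panel with its own scale that does not start at 0) on every array by group (x axis), with the group median as a line, mp53 8 as a square, mp53 10 as a diamond and Ras 10 as a ring. In the MAPK panel the diamond (9.78) lies with the mp53/Ras arrays (9.65 to 9.86) and the ring (8.91) with the mp53 arrays, while for the p53 targets all mp53/Ras arrays (9.46 to 9.58) lie below every other array.

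Of the EGF family, several ligands rose and a ligand and receptors fell. Ereg (epiregulin), Btc (betacellulin) and Hbegf rose by 1.58 ± 0.22, 1.18 ± 0.15 and 1.09 ± 0.16, and the receptor inhibitor Lrig1 by 1.03. Nrg1 (neuregulin) fell by 1.32 ± 0.10, with 6.21 to 6.60 on the mp53/Ras arrays and 7.53 to 7.95 on all mp53 arrays. The receptor genes Erbb3 and Egfr fell by 1.03 ± 0.13 and 0.78. The list had 5 of 13 members higher and 3 lower. In the list of AP-1 subunits and related factors, Maff and Nfe2l2 among the latter, 3 of 14 members were higher and 5 lower. Fosl1 led the rises and Maff (0.52) and Nfe2l2 (0.36) followed, while Jund, Atf3, Maf, Fosl2 and Batf3 fell by 1.02, 0.87, 0.83, 0.66 and 0.49. Another bright probe set of Jund differed by 0.01.

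Matrix proteases moved in both directions. Of 24 tested proteases and inhibitors, 6 were higher and 9 lower with all arrays, near the background in the rises. Without mp53 8 and 10, 8 were higher and 9 lower, where 22.3% of all tested genes were higher and 23.2% lower. Mmp13, a collagenase, was at 5.92, 6.99 and 7.43 on the mp53/Ras arrays and at 3.82 to 4.13 on the mp53 arrays, with 3.91 on array 8 and 7.99 on array 10, the highest of all 20. It differed by 2.56 ± 0.37, and by 2.95 without 8 and 10. Mmp10, a stromelysin, was at 7.47, 7.65 and 7.89 against 6.46 to 6.70, with 6.57 and 7.38, and rose by 1.02 ± 0.15. Plaur, the urokinase receptor, Mmp3, another stromelysin, Adam12 and the inhibitor Timp1 rose by 0.94, 0.81, 0.54 and 0.52. The membrane-anchored inhibitor Reck fell by 1.35 ± 0.17, and Adamts1 and Adamts5, which cut proteoglycans, by 1.28 ± 0.15 and 1.09 ± 0.20. Mmp2 and its activator Mmp14 fell by 0.47 and 0.42.

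Promoters of rising members of the protease and inhibitor list are shown because 4 of their 5 windows on the RefSeq table hold the letters TGANTCA. This is the consensus site of AP-1, to which Fosl1 and Jun proteins bind. The windows are the 250 bases before each RefSeq transcription start, in build GRCm38.p6, on the plus strand in each case, and capitals mark the match. TGANTCA reads the same on both strands as a pattern, and it occurred in 2217 of 32851 such windows (6.75%). It was in 1 of 15 windows of the other tested members of that list (6.67%) and in 0 of 10 windows of 9 leading rises. Of the 19 rising MAPK genes 9 had windows, and 1 of their 11 windows (9.09%) held it, which is the Plaur window shown here. The fifth window, of Timp1, had no match. The windows lie at chr9:7272264-7272513 (Mmp13), chr9:7502092-7502341 (Mmp10), chr9:7445572-7445821 (Mmp3) and chr7:24462233-24462482 (Plaur), and the match begins 35, 63, 46 and 69 bases before the start. The Mmp13, Mmp10 and Mmp3 windows lie close together on chr9 and may not be separate instances to set against the 6.75%. A match is a run of letters and was not tested as a binding site.
Mmp13: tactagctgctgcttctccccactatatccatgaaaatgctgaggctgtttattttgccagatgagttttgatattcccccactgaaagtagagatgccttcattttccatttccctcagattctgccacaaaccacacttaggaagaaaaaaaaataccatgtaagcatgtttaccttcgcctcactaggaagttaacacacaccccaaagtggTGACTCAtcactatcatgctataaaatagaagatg
Mmp10: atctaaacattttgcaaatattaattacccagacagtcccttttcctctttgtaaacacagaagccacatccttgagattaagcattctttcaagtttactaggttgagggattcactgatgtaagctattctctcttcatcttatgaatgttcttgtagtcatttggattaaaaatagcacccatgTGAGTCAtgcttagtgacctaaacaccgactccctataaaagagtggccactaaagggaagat
Mmp3: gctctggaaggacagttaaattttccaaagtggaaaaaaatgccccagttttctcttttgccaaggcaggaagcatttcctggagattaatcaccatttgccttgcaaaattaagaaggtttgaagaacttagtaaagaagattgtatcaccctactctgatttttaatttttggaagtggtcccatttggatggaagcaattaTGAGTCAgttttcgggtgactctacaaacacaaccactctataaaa
Plaur: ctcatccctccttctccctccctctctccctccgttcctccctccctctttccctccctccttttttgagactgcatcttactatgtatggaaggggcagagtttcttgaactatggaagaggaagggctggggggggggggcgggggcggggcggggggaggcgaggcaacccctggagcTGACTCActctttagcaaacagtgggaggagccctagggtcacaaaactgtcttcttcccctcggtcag

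Targets of p53 were 24 of 36 lower and 2 higher (66.7% lower), with a median difference of -0.43, and 27 lower and 2 higher without mp53 8 and 10. The list mean was 9.46, 9.52 and 9.58 on the mp53/Ras arrays and 9.89, 10.03 and 10.16 on the mp53 arrays, and the groups did not overlap. Ras cells had a median of 9.92, YAMC cells 10.21 and bleo/Neo cells 10.29. Beyond Pmaip1, the death receptor gene Fas was at 8.74, 8.88 and 9.27 against 9.56, 9.88 and 10.19 and fell by 1.00 ± 0.12. Rprm, an inducer of G2 arrest, fell by 1.13 ± 0.19, with arrays that did not overlap, and Igfbp3 by 1.32 ± 0.24. Gadd45b and Gadd45a, stress proteins, fell by 0.98 and 0.96, and the p53 ligase gene Mdm2 and the kinase inhibitor gene Cdkn1a (p21) by 0.47 and 0.34, both without overlap. The Polo kinase genes Plk3 and Plk2 were higher, by 0.51 and 0.23. In the BCL2 and death receptor list 10 of 27 were higher and 7 lower, and 7 and 8 without mp53 8 and 10. Dapk1, a death-associated kinase, fell by 1.31 ± 0.13, and Tnfrsf21, a death receptor, and Birc5 (survivin) rose by 1.10 ± 0.14 and 0.70 ± 0.10.

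Among cell-cycle genes, mitotic members rose more often than they fell, and DNA replication genes the reverse. Mitotic and G2/M genes were 16 of 31 higher and 2 lower, with a median of 0.22, and 19 and 1 without mp53 8 and 10. Cenpa, the centromeric histone, was at 10.54, 10.65 and 11.29 against 8.99, 9.76 and 9.91 and rose by 1.12 ± 0.17, the mitotic kinase gene Aurka rose by 0.70 ± 0.11, and Ccnb2 (cyclin B2) by 0.64 ± 0.12. Mad2l1 fell by 0.22. Top2a was lower by the test (-0.45), but it was at -0.30 (adjusted p = 0.136, limma) without 8 and 10 and at 0.071 as the mean of all its probe sets. DNA replication genes were 16 of 31 lower and 2 higher, with a median of -0.19, and 11 and 2 without those arrays. Pole, a DNA polymerase subunit, Rrm1, of ribonucleotide reductase, and Mcm7, of the replicative helicase, fell by 0.88 ± 0.16, 0.61 ± 0.11 and 0.57 ± 0.08, and Tk1 and Gins1 rose by 0.68 and 0.41. Among G1 regulators 5 of 22 were higher and 9 lower. Rb1, the retinoblastoma tumour suppressor, was at 8.72, 9.09 and 9.34 against 10.18, 10.35 and 11.19 and fell 2.59-fold (-1.38 ± 0.09). The kinase inhibitor gene Cdkn1c fell by 0.76, and Ccne1 (cyclin E1) rose by 0.57.

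Matrix and contractile genes were mostly lower. Collagens were 17 of 23 lower and 2 higher, with a median of -0.65, and matrix glycoproteins, proteoglycans and laminins 20 of 33 lower and 3 higher, with a median of -0.40. The collagen mean was 8.89, 9.06 and 9.19 on the mp53/Ras arrays and 9.25, 9.53 and 9.87 on the mp53 arrays. Its median was 9.17 in Ras, 9.87 in YAMC and 9.38 in bleo/Neo cells. For the matrix glycoprotein list the median was 9.35 in mp53/Ras, 9.80 in mp53, 9.37 in Ras and 10.00 in YAMC cells. In bleo/Neo cells, which carry no oncogene, it was 9.31, the lowest of the groups. The basement-membrane chain genes Col4a4 and Col4a5 and the gene Col8a1 fell by 1.29 ± 0.30, 1.17 ± 0.13 and 1.15 ± 0.20, and for all 3 mp53 array 10 lay inside the mp53/Ras range. Other bright probe sets of Col4a4 differed by -1.61 and -0.28. Against the list, Col7a1, of anchoring fibrils, rose by 0.96 ± 0.06 and Col18a1 by 0.84 ± 0.17. Mfap5 and Nid2, of microfibrils and basement membranes, Tnc (tenascin C) and Postn (periostin) fell by 1.99 ± 0.23, 1.69 ± 0.19, 1.53 ± 0.24 and 1.45 ± 0.14. Vcan (versican) and Lamb3, a laminin chain, rose by 1.01 ± 0.33 and 0.68 ± 0.12. As given above, 4 of 5 tested fibroblast markers were lower as well, 3 of them collagens that the list also holds.

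Smooth muscle and contractile genes were 12 of 16 lower and 0 higher, with a median of -0.43. Actg2, smooth muscle gamma actin, was at 7.42, 7.73 and 8.30 on the mp53/Ras arrays and at 9.82 to 11.33 on the mp53 arrays, with 9.63 on array 8 and 7.59 on array 10. Cnn1 (calponin) was at 4.86, 5.18 and 5.39 against 7.01 to 8.05, with 7.85 and 5.85. The differences were -2.55 ± 0.32 and -2.08 ± 0.21, and array 10 lay inside the mp53/Ras range for Actg2. Myl9, a myosin light chain, fell by 1.93 ± 0.28 and Tagln (transgelin) by 0.69 ± 0.13. The list mean of mp53 array 10 (10.40) lay within the mp53/Ras range of 10.35 to 10.54, while the other mp53 arrays lay between 10.98 and 11.44. Bleo/Neo cells, without any introduced oncogene, had a median of 9.98 and so the lowest of the groups. The list of YAP target genes and partners, which also holds Yap1 and the Tead factors themselves, had 9 of 21 members lower and 3 higher. Ccn1, Ptpn14 and Cdc42ep3 fell by 0.72, 0.74 and 0.87, whereas Ankrd1 and Nt5e rose, the latter by 0.40.

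The TGF-beta and BMP list was 17 of 36 lower and 6 higher, with a median of -0.26. Id2, another helix-loop-helix inhibitor, fell by 1.64 ± 0.25 beside Id4. The ligands diverged: Tgfb2 fell by 1.41 ± 0.18, and Tgfb3 and Tgfb1 rose by 0.69 ± 0.13 and 0.54 ± 0.09. Mesenchymal transition genes were 7 of 19 higher and 1 lower. The calcium-binding protein gene S100a4 and the transcription factor genes Foxf2, Twist2 and Snai2 rose by 1.95 ± 0.25, 1.58 ± 0.10, 1.53 ± 0.16 and 0.93 ± 0.12, while Zeb1 fell by 0.34. Epithelial junction and keratin genes were 5 of 27 higher and 8 lower. Keratin genes Krt19 and Krt18 rose by 1.33 ± 0.24 and 1.06 ± 0.14, and Pkp2, of desmosomes, and Cldn15, a claudin, fell by 1.09 ± 0.17 and 0.72 ± 0.12.

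Glycolytic enzymes and sugar or lactate transporters were 16 of 24 higher and 3 lower (66.7% higher), with a median of 0.48. Slc16a3, a lactate exporter, was at 7.69, 8.26 and 9.69 against 6.16, 6.30 and 7.06, and Eno3, an enolase, at 12.16, 12.34 and 12.57 against 10.11, 10.80 and 11.21. They rose by 1.97 ± 0.18 and 1.53 ± 0.14, with no overlap. Hk2, a hexokinase, and Pdk1, a kinase that closes the entry of pyruvate into mitochondria, rose by 1.21 ± 0.17 and 1.07 ± 0.16. Ldhb and Eno2 fell by 0.94 and 0.74. The list mean was 10.07, 10.20 and 10.31 on the mp53/Ras arrays, 9.62 to 9.89 on the mp53 arrays other than 8 and 10, and 9.84 and 10.11 on those. Hypoxia-response genes outside glycolysis were 9 of 27 higher and 7 lower, with a median of 0.10. Vegfc, a lymphatic growth factor, the adenylate kinase gene Ak4, the mitophagy receptor gene Bnip3 and the oxygen sensor gene Egln3 rose by 2.34 ± 0.29, 1.90 ± 0.18, 1.50 ± 0.17 and 1.44 ± 0.15, and Car12 and Lox fell by 0.79 and 0.75. The core letters of the hypoxia element, ACGTG on either strand, were in 9 of 23 promoter windows of the rising glycolysis genes (39.1%), in 6 of 10 of the other glycolysis genes (60%) and in 16.6% of all windows. In the hypoxia-response list they were in 6 of 15 windows of the rising genes (40%) and in 7 of 14 of the others (50%).

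Cholesterol and fatty acid synthesis genes were 17 of 27 higher and 0 lower, with a median of 0.43, and 20 and 0 without mp53 8 and 10. The fatty acid elongase gene Elovl6 and the desaturase gene Scd1 rose by 1.52 ± 0.16 and 1.12 ± 0.19, and the sterol enzyme genes Nsdhl and Sc5d by 1.10 ± 0.14 and 0.97 ± 0.13. Cytosolic ribosomal proteins and translation factors were 12 of 26 higher and 2 lower, with a median of only 0.11. Eif4e, which binds the mRNA cap, and Rps25 rose by 0.65 and 0.63, and Rps4l and Eef1a2 fell by 0.77 and 0.52. The helicase gene Eif4a1 differed by 0.57, and by 0.35 without mp53 8 and 10 (adjusted p = 0.0907, limma). Glutathione and antioxidant genes were 4 of 30 higher and 10 lower. Gstt1 and Hmox1, heme oxygenase, fell by 1.34 ± 0.17 and 0.62 ± 0.25, and Gsto1 rose by 0.72 ± 0.13 beside Sod3. The unfolded protein and amino acid response had 4 of 32 members higher and 6 lower, both under the background, among them Sdf2l1 (0.63) and Pdia6 (0.54), and Ddit3 (-0.71), Slc7a5 (-0.68) and Herpud1 (-0.64).

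Chemokines and cytokines were 13 of 26 higher and 4 lower, with a median of 0.21. Ccl9 was at 8.05, 8.36 and 8.58 against 5.30, 5.94 and 6.94 and rose by 2.27 ± 0.14. Il6, an inflammatory cytokine, Cxcl15 and Cxcl10, an interferon-induced chemokine, rose by 1.71 ± 0.17, 1.51 ± 0.35 and 1.35 ± 0.20, and Cxcl14 and Il18 fell by 1.00 ± 0.15 and 0.63 ± 0.10. Genes of the interferon gamma response and antigen presentation were 5 of 25 higher and 12 lower. The MHC class II genes led the falls: H2-Aa, Cd74, the invariant chain, H2-Eb1 and H2-Ab1 fell by 2.24 ± 0.27, 1.44 ± 0.24, 1.37 ± 0.21 and 0.89 ± 0.11. Socs3 and Psmb10 rose by 0.60 and 0.49. For type I interferon-stimulated genes the 2 arrays set apart decided the count. With all arrays 4 of 28 were higher and 6 lower, and without mp53 8 and 10 it was 11 higher and 4 lower. The list mean was 9.84 to 10.04 on the other mp53 arrays and 10.76 and 10.54 on arrays 8 and 10, against 9.89, 10.23 and 10.38 on the mp53/Ras arrays. Isg20, Oas2, Oasl1 and Oas3 were higher in both fits, by 1.17, 0.83, 0.75 and 0.72 with all arrays.

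Hox genes were 10 of 24 higher and 1 lower, with a median of 0.17. The Hoxd cluster genes Hoxd10, Hoxd9, Hoxd11 and Hoxd8 rose by 1.55 ± 0.28, 1.14 ± 0.10, 1.01 ± 0.12 and 0.81, and Hoxc10 by 1.33 ± 0.16. Hoxd9 was at 9.14, 9.30 and 9.80 against 7.96, 8.14 and 8.57, without overlap. For Hoxd10, mp53 array 8 (8.64) lay above all mp53/Ras arrays (7.11 to 8.10). Hoxc13 fell by 0.98 ± 0.10. Wnt ligands, antagonists and targets were 7 of 28 higher and 11 lower. Notum, an enzyme that inactivates Wnt proteins, was at 5.50, 5.68 and 5.81 against 6.45, 6.77 and 6.86 and fell by 1.03 ± 0.06, Wnt9a fell by 1.04 ± 0.10, and Sfrp1 and Wnt5a rose by 1.20 ± 0.11 and 0.72 ± 0.13. Notch genes were 4 of 20 higher and 7 lower: the target Hey2, the receptor Notch3 and the ligand Jag1 fell by 2.02 ± 0.13, 1.62 ± 0.14 and 0.69 ± 0.11, and the feedback inhibitor Nrarp and Dtx4 rose by 1.38 ± 0.18 and 0.55 ± 0.07.

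Growth factor and guidance genes fell more often than they rose. FGF and IGF ligands, receptors and binding proteins were 5 of 25 higher and 11 lower, with Fgf7 and the receptor gene Fgfr1 (1.48 ± 0.18) leading the rises. The mean of this list was 8.24, 8.32 and 8.40 on the mp53/Ras arrays. It was 8.53 to 8.77 on the mp53 arrays other than 8 (8.34) and 10 (8.40). Medians were 8.32 in bleo/Neo, 8.36 in Ras and 8.51 in YAMC cells. Semaphorins, ephrins and Eph receptors were 6 of 31 higher and 15 lower. Sema7a, a membrane-anchored semaphorin, was at 7.29, 7.98 and 8.58 against 5.64, 5.89 and 6.30 and rose by 1.96 ± 0.12, and the receptor gene Nrp2 by 1.05 ± 0.16. Sema3d, Epha7 and Sema3b fell by 2.39 ± 0.23, 1.81 ± 0.20 and 1.44 ± 0.15. The Hmga, oncofetal and let-7 target list had 4 of 12 members higher and 3 lower, with Hmga2 above, and Plagl1 and Igf2 below. Regulators of protein kinase A and G proteins were 4 of 16 higher and 5 lower. Prkar2b, which binds and restrains protein kinase A, rose by 1.74 ± 0.19, Gng11 by 0.52, and Akap12, Pde4b and Gnai1 fell by 0.82, 0.75 and 0.70. Gnai1 was at -0.38 without mp53 8 and 10 (adjusted p = 0.10, limma).

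Whether Ras had the same effect without mutant p53 was examined with Ras against YAMC and Ras against bleo/Neo, which use none of the mp53 or mp53/Ras arrays. Ras cells differed from YAMC cells in 5505 genes (42.7%), 2775 higher (21.5%) and 2730 lower (21.2%). At least 2-fold differences were found in 384 (2.98%), 167 higher (1.30%) and 217 lower (1.68%). Against bleo/Neo 5301 genes differed (41.1%), 2544 higher (19.7%) and 2757 lower (21.4%), of which 522 at least 2-fold (4.05%), 269 higher (2.09%) and 253 lower (1.96%). Without mp53 8, mp53 10 and Ras 10, Ras cells differed from YAMC cells in 6108 genes and from bleo/Neo cells in 5836. Without YAMC 2 these counts were 5449 and 5512. Of all 6071 genes called in mp53/Ras against mp53, 3379 (55.7%) passed in the same direction in Ras against YAMC, 166 in the opposite one and 2526 did not pass. Against bleo/Neo 2799 (46.1%) did so and 402 passed in the opposite direction. Of the 477 genes that differed at least 2-fold in mp53/Ras against mp53, 420 (88.1%) passed in the same direction in Ras against YAMC, 8 in the opposite one and 49 did not pass. The 250 genes past 2-fold in both were 52.4% of the 477 and 65.1% of the 384. Against bleo/Neo 360 (75.5%) passed in the same direction, 32 in the opposite one and 85 did not pass. Without mp53 8, mp53 10 and Ras 10 there were 539 such genes, of which 486 (90.2%), 11 and 42 did so against YAMC, and 442 (82.0%), 36 and 61 against bleo/Neo. Without YAMC 2 the same direction held for 419 of 477 against YAMC. Plxdc2, for example, differed by -4.28 with mutant p53 and by -4.61 without, and Hmga2 by 3.55 and 3.13.

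The difference between the Ras effects was tested directly, as mp53/Ras minus mp53 less Ras minus the control. With YAMC as the control 1602 genes passed (12.4%), 698 with a higher value on the mutant p53 background (5.42%) and 904 with a lower one (7.02%). Of these 145 differed by at least 1 log2 unit (1.13%), 66 higher (0.512%) and 79 lower (0.613%). On the YAMC baseline 2113 genes passed without mp53 8, mp53 10 and Ras 10, and 1889 without YAMC 2. With bleo/Neo as the control 3073 passed (23.9%), 1524 higher (11.8%) and 1549 lower (12.0%), and 402 by at least 1 unit (3.12%), 163 higher (1.27%) and 239 lower (1.86%). These tests share the Ras, mp53 and mp53/Ras arrays and are not independent. A gene is named below where both passed in the same direction, which held for 769 tested genes (5.97%) and for 107 of the 477, among them 5 of the 15 leading rises and 8 of the 15 leading falls. Since the 477 were chosen for their change in mp53/Ras against mp53, and the same arrays enter the test, a larger change on that side is partly fixed by the choice. Without mp53 8, mp53 10 and Ras 10 the corresponding counts were 981 genes and 149 of 539, and 102 of the 107 passed in that fit too. Without YAMC 2 it was 927 genes, and 104 of the 107 passed.

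**Figure D5:**
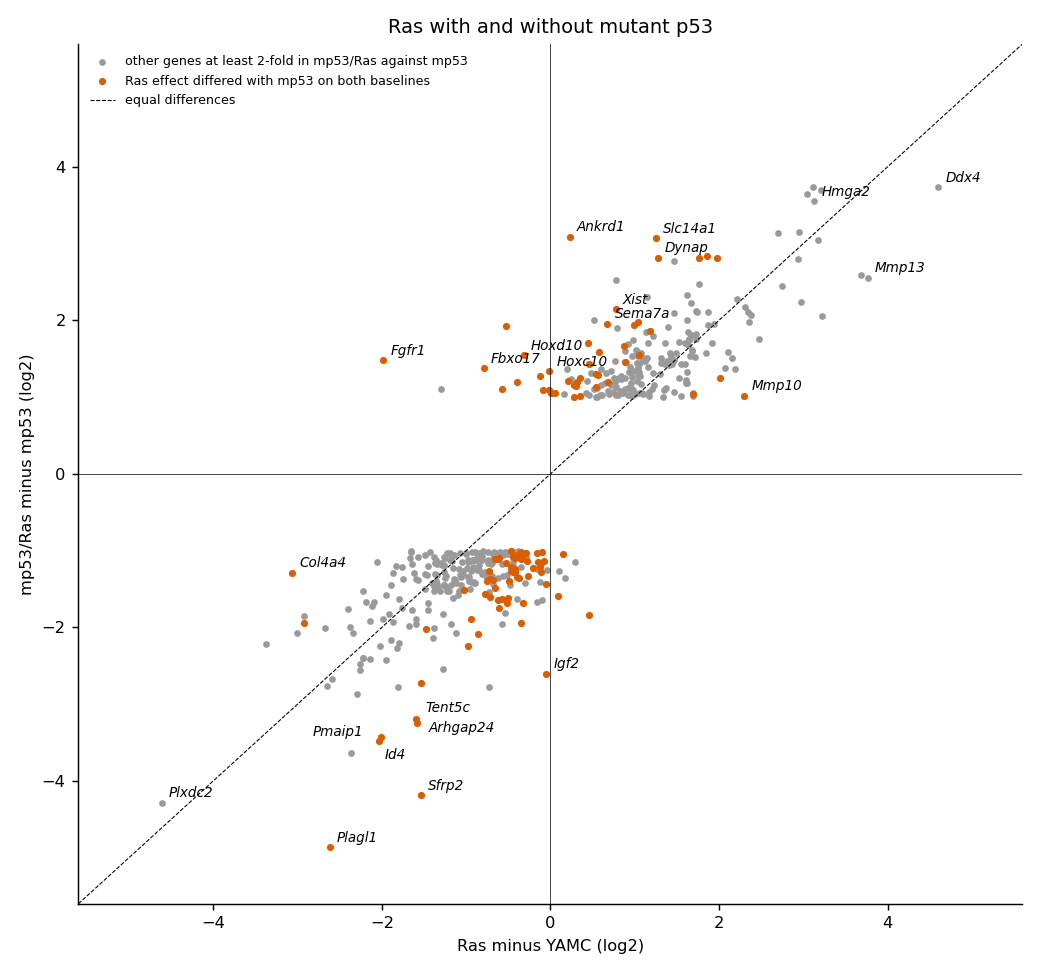
Each point is 1 of the 477 genes that differed at least 2-fold in mp53/Ras against mp53 (y axis, log2), plotted against Ras minus YAMC (x axis, log2); the dashed line marks equal differences and orange points are the 107 genes whose Ras effect differed with mutant p53 on both baselines. Ankrd1 and Igf2 lie near 0 on the x axis (0.23 and -0.05) and far from 0 on the y axis (3.09 and -2.60), and Fgfr1 lies on opposite sides of 0 (-1.98 and 1.48).

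Fgfr1, a receptor for fibroblast growth factors, went in opposite directions on the 2 backgrounds with YAMC as the control, while with bleo/Neo as the control its change with Ras alone did not pass. Its group means were 7.94 in YAMC, 5.96 in Ras, 6.75 in mp53 and 8.23 in mp53/Ras cells, so that it fell by 1.98 ± 0.18 with Ras alone and rose by 1.48 with Ras on mutant p53, a difference of 3.46 ± 0.25 (limma, adjusted p = 6.1e-15). With bleo/Neo (mean 6.14) as the control, Ras cells differed by -0.18 (adjusted p = 0.424, limma), and the difference between the Ras effects was 1.67. Fbxo17, of a ubiquitin ligase, averaged 6.88, 6.08, 6.21 and 7.58 in the same order of groups and differed by 2.17 ± 0.15 on the YAMC baseline and by 2.82 on the bleo/Neo baseline. Ankrd1 averaged 7.05 in YAMC, 7.28 in Ras, 5.58 in mp53 and 8.67 in mp53/Ras cells. Ras minus YAMC was 0.23 ± 0.18 (adjusted p = 0.305, limma), and the difference between the Ras effects was 2.86 ± 0.25, or 1.20 on the bleo/Neo baseline. Ankrd1 averaged 5.39 in bleo/Neo cells, against which Ras cells were higher by 1.89 (adjusted p = 1.25e-12, limma).

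Other rises were larger with mutant p53. Slc14a1, Dynap and Sema7a differed from YAMC by 1.25, 1.27 and 0.68 in Ras cells, and their differences between the Ras effects were 1.81 ± 0.28, 1.54 ± 0.27 and 1.28 ± 0.17. Hoxc10 and Hoxd10 were at -0.02 and -0.32 in Ras against YAMC (0.09 and -0.14 without Ras 10) and exceeded that by 1.35 ± 0.23 and 1.86 ± 0.39. Against bleo/Neo they were at -0.84 and -0.79. They averaged 8.75 and 8.14 in YAMC cells and 7.67 and 6.11 in mp53 cells. Clec11a, a secreted lectin, was at -0.09 in Ras against YAMC and at 1.09 in mp53/Ras against mp53, a difference of 1.18 ± 0.13.

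Of the leading falls, 8 passed as lower on the mutant p53 background on both baselines, and Plxdc2, Igfbp2, Bex1, Cemip, Rasgrp3, Limch1 and Abi3bp did not. Sfrp2 fell by 1.54 in Ras against YAMC (-1.86 without Ras 10) and differed by -2.64 ± 0.53 between the backgrounds. Its group means were 8.98 in YAMC, 7.44 in Ras, 10.26 in mp53 and 6.07 in mp53/Ras cells. Igf2 averaged 6.76, 6.71, 9.09 and 6.49 in the same order and differed by -2.55 ± 0.43. Ras minus YAMC was -0.05 for Igf2, and -0.29 without Ras 10. For both genes the mp53 mean was the highest of the 5 groups. Arhgap24 averaged 10.79, 9.22, 10.24 and 7.0, with a difference of -1.67 ± 0.19. Pmaip1, Id4, Tent5c and Cd55 differed by -1.42, -1.45, -1.60 and -1.20. The transcription factor gene Grhl3 fell on both backgrounds and differed by -1.27 ± 0.24. For others the fall here had no called counterpart in Ras against YAMC: the transcription factor gene Gli2 was at 0.15 there, the RNA-binding protein gene Celf5 at -0.05 and Tbc1d9 at -0.35, and the differences between the Ras effects were -1.19 ± 0.16, -1.39 ± 0.23 and -1.59 ± 0.27. Without Ras 10 Tbc1d9 was at -0.54 in Ras against YAMC and passed (adjusted p = 0.00022, limma). In Ras against bleo/Neo Gli2 and Tbc1d9 were higher, by 1.80 and 1.48, and Celf5 was at -0.32. Plagl1 fell by 2.62 in Ras against YAMC and rose by 1.96 in Ras against bleo/Neo, where its mean was 4.98, and the differences were -2.24 ± 0.56 and -6.82.

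A few genes responded less on the mutant p53 background. Mmp10 rose by 1.02 here and by 2.30 ± 0.15 in Ras against YAMC, a difference of -1.28 ± 0.22. Col4a4 fell by 1.29 here and fell by 3.06 ± 0.30 in Ras against YAMC, a difference of 1.78 ± 0.43, and its mp53 mean (6.55) was already below that of YAMC cells (8.33). Its means in Ras and mp53/Ras cells were alike, at 5.27 and 5.26. Of the MAPK list, 20 of 25 members were higher and 0 lower in Ras against YAMC (21 and 0 without Ras 10), and the Ras effect differed on both baselines for 2, near the 5.97% of all tested genes. Of the 36 p53 targets 0 were higher and 16 lower in Ras against YAMC (0 and 17 without Ras 10), and it differed for 6 (16.7%): Pmaip1, Rprm, Trp53inp1, Zmat3, Ccng1 and Cdkn1a, each lower on the mutant p53 background. Of the 24 Hox genes it differed for 6 (25%) and of the 23 collagens for 3 (13.0%). Among sex-chromosome transcripts it differed for 4 of 4 tested (100%). With YAMC as the control the difference was -1.68 for Kdm5d, 1.37 for Xist and -1.14 for Uty, and Eif2s3y passed as well. A part of population makeup in the other differences was not tested. Mitotic genes were 7 higher and 5 lower in Ras against YAMC, and glutathione genes 11 and 6, and the Ras effect differed on both baselines for 2 of 31 (6.45%) and 3 of 30 (10%).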

How the data were processed

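RNA from polysomes was hybridised to Affymetrix mouse arrays, 10 for each of 5 groups, and samples were grouped by their titles. The deposited table holds linear intensities, 1 for each array and probe set. The submitters' processing notes name RMA and give no version of it. The array medians lay between 86.4 and 86.7. Arrays have no read depth, and their number limits the precision. The table has 0 other per-sample columns.

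Of 45101 probe sets 64 were blank. Analysis used log2 of the deposited intensities, with nothing added. Of the rest, 34945 had exactly 1 symbol, 932 several and 9160 none. Symbols were updated by gene number through a RefSeq table (GRCm38.p6, names, chromosomes and promoters only), which matched 34741. Of a symbol's probe sets the one with the highest mean over all arrays was taken, and a gene was tested if it exceeded the table median on at least 10 of the 50 arrays. Some genes were not analysed here.

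One model in limma (3.58.1, under R 4.3.3, eBayes with an intensity trend) had 1 coefficient per group over all 50 arrays. P-values were Benjamini-Hochberg adjusted over the 12883 genes tested in each comparison, and genes were called at an adjusted p under 0.05. The fit was tested on simulated data. Another bright probe set is one that passes the same filter.

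Named genes were the 15 largest called rises and falls that were also called without mp53 8 and 10, passing over predicted or clone names, up to 4 called members of each list with the largest differences and up to 2 that moved against it, and Xist and the Y-linked genes. Further members, and the genes named for a difference between the Ras effects, were chosen after their values were seen. The comparison, its members and the 33 gene lists (918 genes, 778 tested) were chosen with earlier results of these data known. Lists are described by counts and medians beside those of all tested genes, and some genes belong to several lists. Alternatives changed the arrays, the offset, the filter, the centring, the weights, the block and the choice of probe set.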

Additional observations from a re-analysis of the deposited data

Results flagged for a closer look

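The array farthest from its group was compared with its nearest neighbour for each of the 30 leading genes in the mp53 and mp53/Ras groups, 60 groups of arrays in all. In 26 of them the gap, as a share of the group's whole range, was above Dixon's critical value for 10 arrays. Chance exceeds that value in about 1 of 20 groups that are independent and not selected. The genes here were chosen for their difference between these same arrays, and the 60 groups reuse the same 20 arrays. The count of 26 therefore cannot be set against that rate and is a description. Of these, 23 were mp53 array 10, and 0 were mp53 array 8.

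Array mp53 10 was the highest mp53 array, on the side of the mp53/Ras arrays, for 12 genes. The gap was 0.772 for Ddx4, 0.755 for Ank, 0.740 for Cadm1, 0.588 for Hmga2, 0.769 for Fgf7, 0.494 for Tnnt2, 0.871 for Aldh3a1, 0.643 for Pla2g7, 0.767 for Dynap, 0.818 for Chst1, 0.793 for Ackr3 and 0.599 for Tcim of the range. It was the lowest mp53 array for 11 genes, again on the side of the mp53/Ras arrays, with gaps of 0.662 for Plagl1, 0.782 for Plxdc2, 0.494 for Sfrp2, 0.608 for Igfbp2, 0.751 for Id4, 0.653 for Tent5c, 0.737 for Rasgrp3, 0.629 for Limch1, 0.520 for Abi3bp, 0.521 for Bex1 and 0.615 for Cemip.

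The other outlying arrays were in the mp53/Ras group. Array 4 was highest for Tnnt2 (0.733 of the range) and lowest for Tent5c (0.505), and array 3 was lowest for Plxdc2 (0.502). These deviations lie away from the mp53 arrays.

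For 13 of the 30 leading genes the test of the difference between the Ras effects passed in limma with YAMC as the control, and in the same direction with bleo/Neo as the control. The genes were chosen for their change in mp53/Ras against mp53, whose arrays the test reuses. Among the rises the difference between the Ras effects was 2.86 for Ankrd1, 1.81 for Slc14a1, 1.54 for Dynap, 0.98 for Pla2g7 and 0.83 for Chst1. Among the falls it was -2.64 for Sfrp2, -2.55 for Igf2, -2.24 for Plagl1, -1.67 for Arhgap24, -1.60 for Tent5c, -1.45 for Id4, -1.42 for Pmaip1 and -1.20 for Cd55.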

How the results depend on the processing

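Of 258 counts of genes recomputed under the alternatives, 242 stayed within 1.5 times the reported count. Genes at least 2-fold lower numbered 173 when all probe sets of a gene were averaged. The count of genes whose Ras effect differed rose to 4151 (1993 higher, 2158 lower) with array weights and to 3353 (1563 and 1790) with no filter on the YAMC baseline, and to 5137 (2598 and 2539) and 5038 (2572 and 2466) on the bleo/Neo baseline. Without the filter, 1542 and 1873 of those calls came from the 5310 dim genes. After adding 32 to each value, 91 genes differed by at least 1 log2 unit on the YAMC baseline, 42 higher and 49 lower. Leaving out mp53 replicate 8 or 10 gave 5863 to 6100 called genes, 2856 to 3019 of them higher and 3007 to 3081 lower. Array weights gave 8089 calls and no filter 8121, and centring each array gave 6192, with 3261 higher and 2931 lower. Among named genes, 2628 of 2637 values kept their call and direction. Top2a turned to 0.071 with all probe sets averaged, and it was at -0.30 without mp53 8 and 10 and -0.34 without mp53 8, past no threshold, as were Eif4a1 (0.35) and Gnai1 (-0.38) without both and Plk2 (0.07) with probe sets averaged. The cause was not tested. Of 990 list counts 955 stayed within 1.5 times, and interferon-stimulated genes went from 4 higher and 6 lower to 11 and 4 without mp53 8 and 10. Leaving out YAMC replicate 2 gave 6253 called genes, and 1889 with a differing Ras effect on the YAMC baseline. This and leaving out mp53 8, mp53 10 and Ras 10 together were chosen after seeing the data.

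The groups share replicate numbers, and the labels do not say that a number marks a shared culture or day. Same-number deviations correlated between -0.15 and 0.42, with a median of 0.14 against -0.01 for different numbers. Although 6 of 10 were above 0.1, only 1 array correlated best with its own number, and the arrays were not treated as paired. With the replicate number as a block, 6658 genes were called (3305 higher, 3353 lower), and 477 at least 2-fold. Arrays give no read depth, and no detection calls were used, so dim probe sets limit what small differences can show.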

Other observations

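The called genes were unevenly spread over the chromosomes, which were assigned by gene number from the RefSeq table (GRCm38.p6). Of 719 tested genes on chromosome 1, 35.6% were higher and 15.4% lower in mp53/Ras than in mp53 cells, with a median difference of 0.12, and 0.14 without mp53 8 and 10. In Ras against YAMC cells 20.2% of the same genes were higher and 22.7% lower. Chromosomes 4, 6 and 8 had 31.1%, 32.8% and 34.8% of their genes lower, and chromosome 10 had 30.6% higher. In Ras against YAMC, chromosome 9 had 36.2% of its genes lower and chromosome 15 had 35.2% higher. Over all tested genes the shares were 23.3% higher and 23.8% lower in mp53/Ras against mp53.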
